A study of Mus musculus with 8 samples.

Results

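The nuclear genes of respiratory complexes II to V are described here in mouse CD8+ T cells that were given EnPGC-1 or DMSO. The 41 genes are a fixed list of subunit genes, taken by name: 4 of complex II, 9 of complex III, 11 of complex IV, 16 of complex V with its inhibitor protein, and the gene of cytochrome c. All 41 were found among the 21631 protein-coding genes of RefSeq on the chromosomes that the data hold. ChIP-seq mapped H3K27ac, the acetyl mark on histone H3 that is typical of promoters and enhancers in use, in primary CD8+ T cells. The cells, taken out of lymph node and spleen of C57BL/6 mice, had been stimulated with antibodies to CD3 and CD28 and kept for 48 h with EnPGC-1, which the labels class among PIPs, or with the vehicle DMSO. The 8 samples formed 5 groups, all of stimulated cells: 2 H3K27ac samples and 1 input from EnPGC-1-treated cells, and 2 H3K27ac, 2 IgG and 1 input from DMSO-treated cells. Age and sex of the mice are not given in the labels, and neither is whether the 2 H3K27ac samples of a treatment came from separate animals.

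The respiratory chain in the inner mitochondrial membrane passes electrons from food-derived carriers to oxygen, and the proton gradient that this builds across the membrane drives ATP synthesis. Complex II feeds electrons from succinate into the ubiquinone pool, complex III hands them to cytochrome c, complex IV gives them to oxygen, and complex V is the ATP synthase. Stimulated CD8+ T cells enlarge their mitochondria and rely on respiration when memory cells form and when cells work in tumours, and PGC-1 coactivators are known regulators of respiratory genes, acting with factors such as NRF1, the ETS factor GABP and ERR alpha.

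The values are positions of peaks, 1 list for each treatment, on mm10, and a gene is called marked where an interval of a list falls in the window named. The score of an interval is the authors' own value, read here as a −log10 q-value, and its percentile is the rank within its own list, so that percentiles of the 2 lists show no change between them. There were 253423 distinct intervals over 165 Mb in the EnPGC-1 list and 81522 over 41.3 Mb in the DMSO list, ratios of 3.11 and 4. With 1 list per treatment no spread between replicates can be measured, so no difference below was tested. Sequencing depth is unknown here, and covered bases grow with how much of the genome was called in a list. Shares of all protein-coding genes are therefore given beside the counts over the 41 genes. More cells carrying the mark and more of the mark per cell cannot be told apart. Within 5 kb of a gene end, 84.1% of all protein-coding genes had an interval with EnPGC-1 and 62.6% with DMSO. T cell markers had one for 12 of 12 genes with EnPGC-1 (100%) and 8 of 12 with DMSO (66.7%). Their summed covered bases were 46327 with EnPGC-1 and 10274 with DMSO. Their widest difference was at Zap70, a kinase of T cell receptor signalling, with 12462 covered bases with EnPGC-1 and 3275 with DMSO, and the smallest at Cd3g, a chain of the CD3 complex, with 532 with EnPGC-1 and 0 with DMSO. Cd8b1, a chain of the CD8 coreceptor, had 4845 with EnPGC-1 and 558 with DMSO. Markers of other cell types had an interval for 12 of 14 genes with EnPGC-1 (85.7%) and 8 of 14 with DMSO (57.1%), near the shares of all genes. Their sums were 36586 bases with EnPGC-1 and 11050 with DMSO. The widest difference among them was at Csf1r, a macrophage receptor gene, with 8332 bases with EnPGC-1 and 3256 with DMSO. The B cell gene Ms4a1 and the natural killer cell gene Ncr1 had 0 bases in both lists, while the B cell gene Cd79a had 5065 bases with EnPGC-1 and 830 with DMSO. The part of other cells in the results below was not tested.

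Promoter sequences are shown for 6 genes that stand for the 3 kinds of marking found at starts. They give the 250 bases before the annotated start, read 5′ to 3′ along the gene, from RefSeq on GRCm38.p6. Capitals mark matches to any of 7 motifs that transcription factors are known to bind. The gene of cytochrome c (Cycs, chr6:50566570-50566819, minus strand), the complex IV gene Ndufa4 (chr6:11907451-11907700, minus strand) and Cox7c (chr13:86046796-86047045, minus strand), also of complex IV, had an interval at the start with DMSO alone. The complex IV gene Cox5b (chr1:36691237-36691486, plus strand) and Atp5j of the ATP synthase stalk (chr16:84835626-84835875, minus strand) had one with EnPGC-1 alone, and theirs covered more bases around the start than those of the other genes marked in that list alone. The ATP synthase gene Atp5k (chr5:108434400-108434649, minus strand) was marked in both lists and held the highest-scoring EnPGC-1 interval within 1 kb of a start of these genes.
Cycs: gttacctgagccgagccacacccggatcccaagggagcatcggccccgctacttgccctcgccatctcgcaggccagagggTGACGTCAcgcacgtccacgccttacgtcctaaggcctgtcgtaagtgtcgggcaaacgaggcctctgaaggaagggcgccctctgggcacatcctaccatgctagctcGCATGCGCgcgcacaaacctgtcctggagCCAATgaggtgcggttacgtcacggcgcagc
Ndufa4: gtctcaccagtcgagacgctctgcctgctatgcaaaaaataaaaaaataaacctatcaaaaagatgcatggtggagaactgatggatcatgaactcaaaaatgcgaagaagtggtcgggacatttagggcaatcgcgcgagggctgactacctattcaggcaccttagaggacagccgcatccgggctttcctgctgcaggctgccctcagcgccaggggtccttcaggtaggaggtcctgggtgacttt
Cox7c: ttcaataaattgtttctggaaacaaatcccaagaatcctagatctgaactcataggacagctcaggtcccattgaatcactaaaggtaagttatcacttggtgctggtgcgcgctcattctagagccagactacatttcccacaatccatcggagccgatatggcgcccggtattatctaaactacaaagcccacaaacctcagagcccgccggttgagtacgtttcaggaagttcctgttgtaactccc
Cox5b: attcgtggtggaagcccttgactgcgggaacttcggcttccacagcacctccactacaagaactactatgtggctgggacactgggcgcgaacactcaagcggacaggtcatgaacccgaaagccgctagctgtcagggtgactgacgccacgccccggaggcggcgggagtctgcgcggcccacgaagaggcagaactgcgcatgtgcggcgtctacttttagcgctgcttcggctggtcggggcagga
Atp5j: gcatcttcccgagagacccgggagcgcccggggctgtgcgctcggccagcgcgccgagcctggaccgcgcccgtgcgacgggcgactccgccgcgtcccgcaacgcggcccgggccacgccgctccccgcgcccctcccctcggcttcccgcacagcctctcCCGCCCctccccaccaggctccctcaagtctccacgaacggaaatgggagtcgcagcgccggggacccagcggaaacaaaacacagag
Atp5k: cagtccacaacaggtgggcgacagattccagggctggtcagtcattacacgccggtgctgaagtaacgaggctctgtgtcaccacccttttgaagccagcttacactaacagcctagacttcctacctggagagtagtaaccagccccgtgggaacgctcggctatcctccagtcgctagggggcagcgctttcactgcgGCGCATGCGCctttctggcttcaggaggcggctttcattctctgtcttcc
The Cycs promoter holds a CRE match, an NRF1 match and a CCAAT box in this stretch, and the Atp5k promoter holds an NRF1 match on each strand, overlapping each other. Atp5j has 1 SP1 match. The stretches of Ndufa4, Cox7c and Cox5b hold none of the 7 motifs.

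Motifs of factors known for respiratory genes were searched on both strands in the 300 bases from 250 before to 50 after each of the 33 listed starts. NRF1, which was first found on the cytochrome c promoter of rat, has the motif GCGCATGC, matched at 8 genes (24.2%) and in 3.64% of all 17274 promoters. The 8 were Sdhb, Uqcrc1, Uqcr11, Cycs, Cox6a1, Atp5g2, Atp5k and Atp5l, the last of which is the gene with 0 covered bases in both lists. The motif CCGGAAG of ETS factors such as GABP was matched at 11 genes (33.3%) and in 12% of all promoters. AAGGTCA, bound by ERR alpha, was matched at 6 genes (18.2%) and in 4.06% of all promoters, and the CRE, TGACGTCA, at Uqcrfs1 and Cycs (6.06%) and in 2.37%. CCAAT of NFY was matched at 17 genes (51.5%) and in 39.4% of all promoters, AAGATGG of YY1 at 3 (9.09%) and in 6.42%, and GGGCGG of SP1 at 12 (36.4%) and in 46.9%. In the printed stretches no base belonged to matches of 2 different motifs. A match describes the letters and does not show binding. The GC content of these windows had a median of 56.7%, against 56.3% over all genes, and the number of CpG a median of 19, against 14.

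Within 1 kb of a gene end, 31 of the 41 genes had an interval with EnPGC-1 and 19 with DMSO. The background over all protein-coding genes was 72.8% for EnPGC-1 and 41.6% for DMSO, close to the 75.6% for EnPGC-1 and 46.3% for DMSO of these genes. An interval was found in both lists for 16 genes, in EnPGC-1 alone for 15, in DMSO alone for 3 and in neither for 7. The 15 genes are 36.6% of the set, against 33.4% of all genes marked with EnPGC-1 alone, and the 3 genes are 7.32%, against 2.19% of all genes marked with DMSO alone. By complex, EnPGC-1 intervals marked 3 genes of complex II, 8 of complex III, 7 of complex IV and 13 of complex V, and DMSO intervals marked 3 of complex II, 3 of complex III, 4 of complex IV and 8 of complex V. Complexes III, IV and V each had 5 genes marked with EnPGC-1 alone, and complex II had 0.

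**Figure D1:**
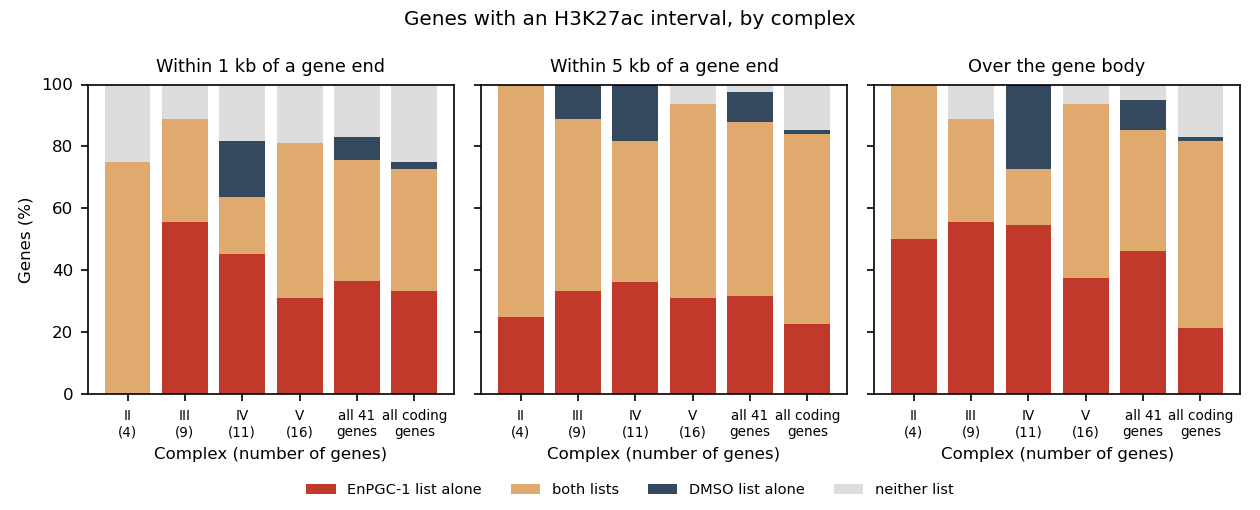
Share of genes with an H3K27ac interval in EnPGC-1 alone, both lists, DMSO alone or neither, by complex and window, with the number of genes in brackets and cytochrome c counted only among all 41. Within 1 kb of a gene end, 36.6% of the 41 genes and 33.4% of all protein-coding genes were marked with EnPGC-1 alone.

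Within 5 kb of a gene end, 36 genes were marked with EnPGC-1 and 27 with DMSO, against a background of 84.1% of all genes for EnPGC-1 and 62.6% for DMSO. The EnPGC-1 list alone marked 13, or 31.7%, where the share of all genes was 22.8%. The DMSO list alone marked 4, or 9.76%, where the share of all genes was 1.2%. The EnPGC-1 list covered more bases than the DMSO list at 36 of the 41 genes and fewer at 4, and the shares of all genes were 81.4% and 3.97%. The median gene of the set had 1833 covered bases with EnPGC-1 and 597 with DMSO, with a median difference (EnPGC-1 minus DMSO) of 1099. All genes had medians of 1891 with EnPGC-1 and 432 with DMSO and a median difference of 1342. The summed bases were 98198 with EnPGC-1 and 29225 with DMSO, a ratio of 3.36, near the 3.56 of all genes. Of 145 EnPGC-1 intervals in these windows, 41 (28.3%) overlapped a DMSO interval, and of 51 DMSO intervals, 38 (74.5%) overlapped an EnPGC-1 interval. In the same windows of all genes, 29.4% of EnPGC-1 intervals overlapped a DMSO interval and 78.4% of DMSO intervals overlapped an EnPGC-1 interval.

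**Figure D2:**
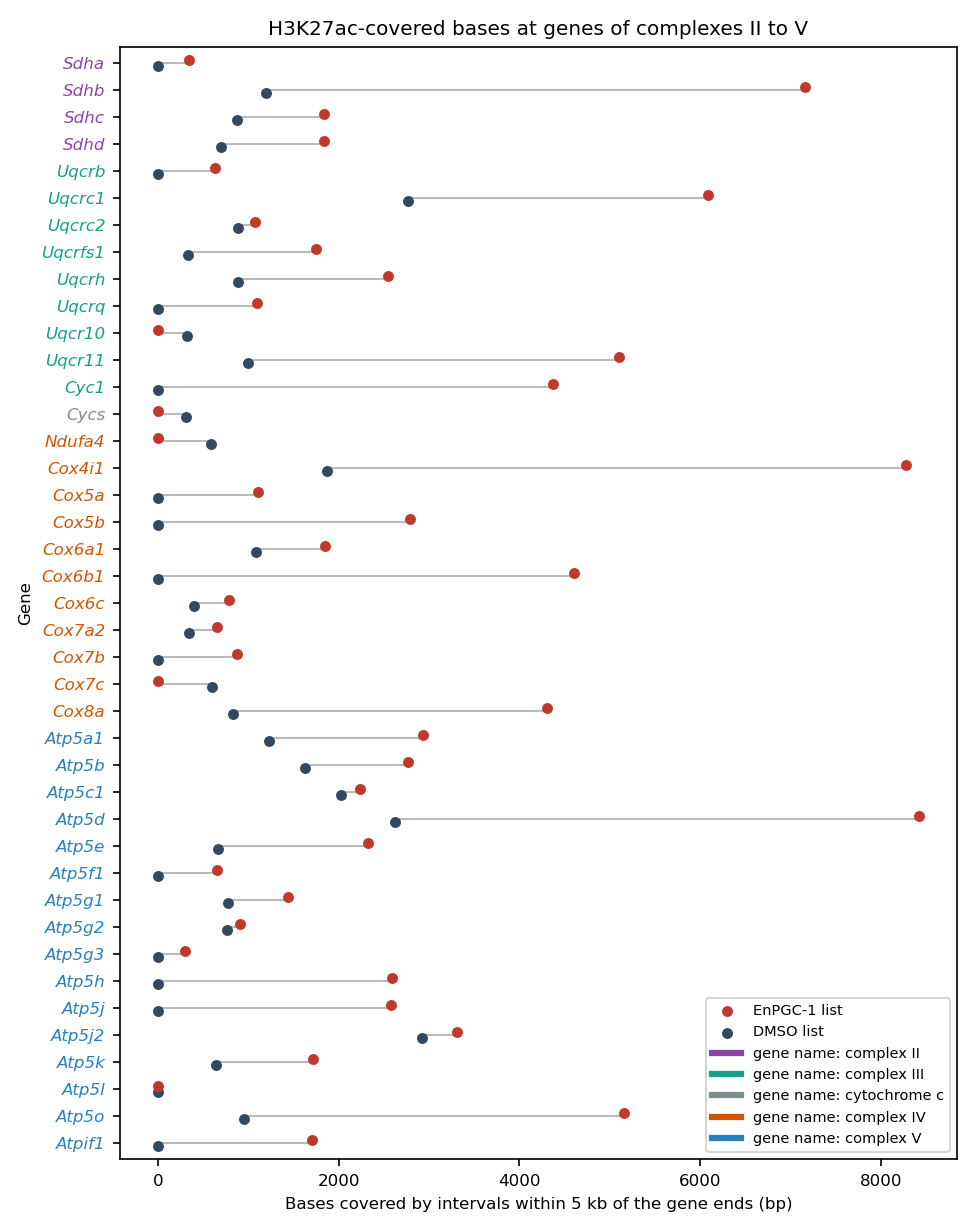
Bases covered by H3K27ac intervals within 5 kb of the ends of each of the 41 genes, with the EnPGC-1 list in red above the DMSO list in dark blue and gene names coloured by complex. The EnPGC-1 point lies to the right at 36 genes, with the widest gap at Cox4i1 (8285 bases with EnPGC-1 and 1877 with DMSO), and to the left at Uqcr10, Cycs, Ndufa4 and Cox7c.

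Over the gene body, 35 genes were marked with EnPGC-1 and 20 with DMSO, against 81.9% of all genes for EnPGC-1 and 61.6% for DMSO. The EnPGC-1 list alone marked 19, or 46.3%, and the share of all genes was 21.4%. The DMSO list alone marked 4, or 9.76%, and the share of all genes was 1.1%. These 4 were Cycs, Ndufa4, Cox7a2 and Cox7c. The genes of the set are short, with a median length of 6751 bp against 17329 bp over all genes. Another coding gene reached into the windows of 33 of the 41 genes at 5 kb and of 22 at 1 kb, and an interval there may belong to either gene.

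Complex II, succinate dehydrogenase, also works in the TCA cycle, and its genes had 11178 covered bases within 5 kb with EnPGC-1 and 2772 with DMSO. The widest difference was at Sdhb, the iron-sulfur subunit (chr4:140961271-140979198), with 7159 bases in 12 intervals with EnPGC-1 and 1202 bases in 3 intervals with DMSO. Most of its EnPGC-1 bases lay in the gene body and beyond its 3′ end, and the widest EnPGC-1 interval over the body (chr4:140971303-140973122, 1820 bp, score 7.05) began 10032 bases after the start. Around the start itself both lists were thin at Sdhb, with 487 bases within 1 kb for EnPGC-1 and 383 for DMSO. Sdha, the catalytic flavoprotein subunit (chr13:74322255-74350240), had 346 bases within 5 kb with EnPGC-1 and 0 with DMSO. Its 346 bases belong to an interval at chr13:74316841-74317600 beyond the 3′ end, and neither list marked its start. The membrane anchor genes Sdhc and Sdhd were marked in both lists. Sdhc had 1833 bases with EnPGC-1 and 871 with DMSO, and Sdhd had 1840 with EnPGC-1 and 699 with DMSO. An EnPGC-1 interval of 1032 bp lay across the start of Sdhd, whereas its DMSO interval of 699 bp lay beyond the 3′ end. Timm8b, on the other strand, has its start within 1 kb of the Sdhd start.

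Complex III, the cytochrome bc1 complex, had 22666 covered bases within 5 kb with EnPGC-1 and 6189 with DMSO. Within 1 kb, 5 of its 9 genes (55.6%) were marked with EnPGC-1 alone, against 33.4% of all genes. With as many EnPGC-1 intervals kept as the DMSO list holds, 3 of the 9 (33.3%) were, against 15.5% of all genes. Among the catalytic subunits, Cyc1, which encodes cytochrome c1 (chr15:76343513-76346260), had 4376 bases in 5 intervals with EnPGC-1 and 0 with DMSO. EnPGC-1 intervals took up 70.7% of its gene body, the largest share among the 41 genes in either list. Uqcrfs1, the Rieske iron-sulfur protein (chr13:30540312-30545316), had 1747 bases in 4 intervals with EnPGC-1 and 333 bases in 1 interval with DMSO. One of these 4, at chr13:30549477-30549865 and 4161 bases before the start, had the highest EnPGC-1 score near any of the 41 genes, 11.51, at percentile 99.8 of its list. Its DMSO interval lay 1400 bases before the start and overlapped another EnPGC-1 interval over 316 bp.

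The core protein genes of complex III were marked in both lists. Uqcrc1 had 6089 bases in 8 intervals with EnPGC-1 and 2768 bases in 6 intervals with DMSO, and Uqcrc2 had 1071 bases with EnPGC-1 and 883 with DMSO, in 1 interval each. Among the small subunits, Uqcrh, the hinge protein gene, had a 2547-bp EnPGC-1 interval that reached across its start, and a DMSO interval of 891 bp that lay wholly inside it and ended 994 bases before the start. Lrrc41, on the other strand, has its start within 1 kb of the Uqcrh start. Uqcrb (chr13:66900576-66905350) had 634 bases with EnPGC-1 and 0 with DMSO, from 1 interval at its higher-coordinate end (chr13:66904850-66905483, score 7.678). Uqcrq (chr11:53427922-53430831) had 1099 bases in 3 EnPGC-1 intervals and 0 with DMSO. None of these small subunits carries electrons itself. Uqcr11 (chr10:80402997-80406821) had 5103 bases with EnPGC-1 and 994 with DMSO, most of them upstream, and neither list had an interval within 1 kb of its start. Uqcr10 (chr11:4701968-4704344) went the other way, with 0 bases with EnPGC-1 and 320 with DMSO, from 1 interval that ended 4026 bases before its start.

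Cytochrome c, the small carrier between complexes III and IV, also triggers the apoptosome once released from mitochondria. Its somatic gene Cycs (chr6:50562563-50566569) had 0 covered bases in the EnPGC-1 list, within 5 kb and over the gene body, and 308 bases in 1 interval in the DMSO list. That interval (chr6:50566376-50566683, score 2.162, percentile 39.4 of the DMSO list) reached from 114 bases before to 193 bases after the start, over the part of the promoter that holds the NRF1 match shown above. No other coding gene lay within 5 kb of Cycs.

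Complex IV, cytochrome c oxidase, held the gene with the widest difference and 2 of the genes marked with DMSO alone. Its genes had 25289 covered bases within 5 kb with EnPGC-1 and 5720 with DMSO. Cox4i1, the common form of subunit 4 (chr8:120668225-120674209), had 8285 bases in 6 intervals with EnPGC-1 and 1877 bases in 3 intervals with DMSO, a difference of 6408. One EnPGC-1 interval of 4005 bp (chr8:120670255-120674259) covered most of its gene body, where the DMSO list had 0 bases. The coding genes Gm27021 and Emc8 also reached into the 1 kb windows of Cox4i1. The DMSO intervals at Cox4i1 lay outside the gene, and one of them (chr8:120664353-120664771, 5.115) had the highest DMSO score near any of the 41 genes, at percentile 97.7 of its list. All 3 overlapped EnPGC-1 intervals, over 394, 490 and 726 bp.

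Other complex IV genes were marked with EnPGC-1 alone within 5 kb. Cox6b1, an intermembrane-space subunit (chr7:30616971-30626114), had 4611 bases in 8 intervals with EnPGC-1 and 0 with DMSO. Cox5b (chr1:36691487-36693388), which binds zinc, had 2794 bases with EnPGC-1 and 0 with DMSO. Its first interval (chr1:36690826-36692436) covered 1611 bases around the start, including the whole promoter stretch shown above. That interval had a low score for its list, 2.633 (percentile 24.3). Cox5a (chr9:57517328-57532427) had 1107 bases with EnPGC-1 and 0 with DMSO. Its interval of 621 bp (chr9:57521252-57521872) began 20 bases after the listed start and scored 8.995 (percentile 99.1). Cox7b, on chromosome X (chrX:106015700-106022450), had 881 bases with EnPGC-1 and 0 with DMSO, and the interval over its start (chrX:106015685-106016068) scored 8.34 (percentile 98.5). Cox8a (chr19:7215158-7217616) was marked in both lists within 5 kb, with 4308 bases with EnPGC-1 and 828 with DMSO. Within 1 kb it was marked with EnPGC-1 alone, where 2145 bases were covered, and an interval lay across its start (chr19:7216956-7217704).

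Ndufa4 and Cox7c were marked with DMSO alone. Ndufa4 (chr6:11900372-11907450), first assigned to complex I and now counted as a complex IV subunit, had 0 bases in the EnPGC-1 list within 5 kb and over its body, and 584 bases in 1 interval in the DMSO list. This interval (chr6:11907104-11907687, score 4.242) stood at percentile 95.1 of the DMSO list and lay across the start, which has the start of Phf14 on the other strand within 1 kb. Cox7c (chr13:86044798-86046795) had 0 bases with EnPGC-1 and 597 with DMSO. Its interval (chr13:86046283-86046879, score 1.755) stood lower, at percentile 20.9, and also lay across the start.

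The remaining complex IV genes were marked in both lists within 5 kb. Cox6a1, the common form of subunit 6a, had 1854 bases with EnPGC-1 and 1091 with DMSO. Cox6c had 791 with EnPGC-1 and 401 with DMSO, and Cox7a2 had 658 with EnPGC-1 and 342 with DMSO. At Cox7a2 the lists marked different places, with the EnPGC-1 interval 7239 bases after the listed start and the DMSO interval 86 bases after it. That start (chr9:79759853) lies inside the gene span used for the other windows (chr9:79755241-79771422). At Cox6a1 the DMSO interval of 1091 bp lay across the start and held the whole EnPGC-1 interval of 587 bp.

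Complex V had 39065 covered bases within 5 kb with EnPGC-1 and 14236 with DMSO, a ratio of 2.74. Among the genes of the catalytic head and the central stalk, Atp5d, the delta subunit (chr10:80138698-80145828), had 8424 bases in 9 intervals with EnPGC-1. With DMSO it had 2620 bases in 3 intervals. Around its listed start this was turned round, with 0 bases within 1 kb with EnPGC-1 and 1377 with DMSO, from an interval of 1785 bp (chr10:80140867-80142651). That start (chr10:80142275) lies inside the gene span used for the other windows. An EnPGC-1 interval (chr10:80138398-80140288) lay across the 5′ end of the span. The alpha subunit gene Atp5a1 (chr18:77773768-77782869) had 2934 bases within 5 kb with EnPGC-1 and 1228 with DMSO, and within 1 kb 625 bases of an EnPGC-1 interval (chr18:77774003-77774627) and 0 with DMSO. The beta subunit gene Atp5b, whose protein holds the catalytic sites, had 2763 bases within 5 kb with EnPGC-1 and 1631 with DMSO, and the gamma subunit gene Atp5c1 had 2242 with EnPGC-1 and 2023 with DMSO. At both of these genes the DMSO interval at the start was the wider one. Within 1 kb of the start, Atp5b had 345 bases with EnPGC-1 and 1047 with DMSO, and Atp5c1 had 806 with EnPGC-1 and 1191 with DMSO. The epsilon subunit gene Atp5e (chr2:174461075-174464101) had 2322 bases within 5 kb with EnPGC-1 and 667 with DMSO, and an interval of 782 bp across its start (chr2:174463478-174464259) with EnPGC-1 alone.

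The stalk that holds the head still is built by Atp5h, Atp5j, Atp5f1 and Atp5o. Atp5h, subunit d (chr11:115415691-115419919), had 2592 bases in 5 intervals with EnPGC-1 and 0 with DMSO. Atp5j, coupling factor 6 (chr16:84827871-84835857), had 2580 bases in 4 intervals with EnPGC-1 and 0 with DMSO. Of the 4, 1 (chr16:84835108-84836344, 1237 bp) lay across the start and scored 1.747, below the median score of its list, 3.64. That start is close to the start of Gabpa, the gene of an ETS factor, on the other strand. Atp5f1, subunit b, now called Atp5pb (chr3:105942698-105959263), had 655 bases with EnPGC-1 and 0 with DMSO, from an interval that ended 277 bases before its start (chr3:105959540-105960194). The start of Wdr77, on the other strand, lies within 1 kb of that start, and the interval may belong to either gene. Atp5o, the oligomycin sensitivity-conferring protein, was marked in both lists, with 5162 bases in 7 intervals with EnPGC-1 and 956 bases in 2 intervals with DMSO. With as many EnPGC-1 intervals kept as the DMSO list holds, the EnPGC-1 bases were 0 at Atp5h, 474 at Atp5j, 655 at Atp5f1 and 2240 at Atp5o.

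The membrane ring of ATP synthase is built of subunit c, which the mouse encodes in Atp5g1, Atp5g2 and Atp5g3 as the same mature protein. The lists marked these genes unequally. Atp5g1 had 1439 bases within 5 kb with EnPGC-1 and 776 with DMSO, and Atp5g2 had 911 with EnPGC-1 and 770 with DMSO. Atp5g3 (chr2:73908447-73912464) had 302 with EnPGC-1 and 0 with DMSO, from 1 interval 526 bases after its listed start (chr2:73910499-73910800). At the start of Atp5g1 the EnPGC-1 interval (285 bp, score 2.406, percentile 21.5) was narrower than the DMSO interval (776 bp, score 4.525, percentile 95.5).

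Among the small membrane subunits of ATP synthase, Atp5k, subunit e (chr5:108433246-108434399), had 1722 bases within 5 kb with EnPGC-1 and 647 with DMSO. Its EnPGC-1 interval of 755 bp just inside the gene scored 9.823 (percentile 99.5), and its DMSO interval of 647 bp lay across the start, with 504 bases in common. Atp5j2, subunit f, had 3315 bases with EnPGC-1 and 2918 with DMSO, in 5 intervals each, and an EnPGC-1 interval 3450 bases before its start scored 10.07 (percentile 99.7). Atp5l, subunit g (chr9:44913248-44920742), had 0 bases in both lists within 5 kb and over its body, and was the only one of the 41 genes without any. Atpif1, which encodes the inhibitor of ATP hydrolysis by the synthase (chr4:132530555-132535450), had 1702 bases in 3 intervals with EnPGC-1 and 0 with DMSO. None of its 3 lay within 1 kb of the start, and the strongest (chr4:132532806-132533707, score 8.34) lay in the gene body.

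At the listed starts of complexes IV and V the lists were closer in covered bases than over the wider windows. At those of complex III they were further apart, on only 309 DMSO bases. A strand and start were listed for 33 of the 41 genes, and for 17274 of all genes. No start was used for Sdhc, Uqcrb, Uqcrc2, Uqcrq, Cyc1, Cox4i1, Cox6c and Atp5a1. Within 1 kb of the start, the EnPGC-1 list marked 23 of the 33 and the DMSO list 15, against 66% of all genes for EnPGC-1 and 31.7% for DMSO. The EnPGC-1 list alone marked 13, or 39.4%, near the 37.5% of all genes. The DMSO list alone marked 5, or 15.2%, where the share of all genes was 3.22%, and these were Cycs, Ndufa4, Cox7c, Cox7a2 and Atp5d. More bases were covered in the EnPGC-1 list at 19 genes and in the DMSO list at 9, against 59.9% and 9.31% of all genes. The sums were 16320 bases with EnPGC-1 and 9597 with DMSO, a ratio of 1.7, where all genes had 3.13. By complex, the ratio at starts was 3.97 for complex II, 8.53 for complex III, 1.82 for complex IV and 1.24 for complex V. These ratios rest on 3, 5, 9 and 15 genes with a listed start. Within 5 kb of gene ends the ratio was 4.03 for complex II, 3.66 for complex III, 4.42 for complex IV and 2.74 for complex V. Those values cover all genes of each complex, so that the genes differ between the windows. The complex III ratio at starts rests on 309 DMSO bases, 302 at Uqcrc1 and 7 at Uqcrh. Neither list marked the starts of Uqcr10 and Uqcr11.

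**Figure D3:**
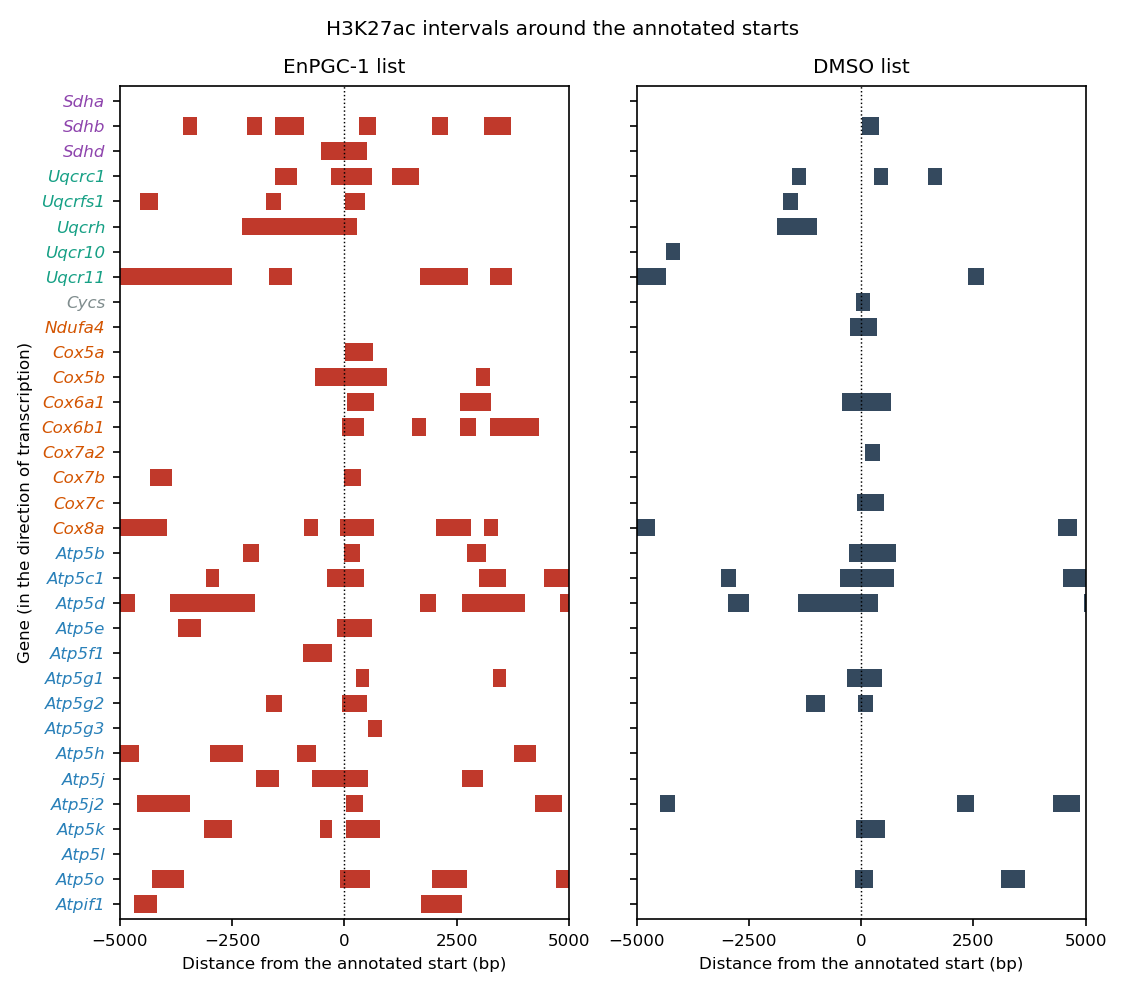
H3K27ac intervals from 5 kb before to 5 kb after the annotated start of 33 genes, drawn in the direction of transcription, with the EnPGC-1 list left and the DMSO list right. DMSO intervals are fewer and gather at the dotted start line, which they cross at 11 genes, and the start line is crossed at 13 genes in the EnPGC-1 list.

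The start base itself lay inside an interval at 13 of the 33 genes in the EnPGC-1 list (39.4%) and at 11 in the DMSO list (33.3%), and at 4 in both: Atp5b, Atp5c1, Atp5g2 and Atp5o. Over all genes the shares were 38.2% for EnPGC-1 and 13.5% for DMSO. In complex V, 6 of 15 start bases were covered with EnPGC-1 (40%) and 7 with DMSO (46.7%). Among the 23 genes with no other coding start within 1 kb, 9 start bases were covered with EnPGC-1 and 9 with DMSO (39.1% each). The share over all genes of that kind was not computed, so the counts for the 23 genes have no matched background. These counts were looked at after the values at starts had been seen. In the 100 bases on each side of the start, EnPGC-1 intervals covered 39.9% of bases at these genes and DMSO intervals 33.9%, where all genes had 38% for EnPGC-1 and 13.5% for DMSO. From 2 to 5 kb before the start, they covered 12.7% for EnPGC-1 and 2.51% for DMSO, near the 10.1% for EnPGC-1 and 2.63% for DMSO of all genes. Over the first 1 kb after the start, coverage was 32% for EnPGC-1 and 18.7% for DMSO, and over all genes 33% and 10.6%. Within that 1 kb it lay nearer the start in these genes. From 100 to 199 bases after the start it was 54.5% for EnPGC-1 and 39.2% for DMSO, and over all genes 42.6% and 15%. In the last 100 bases of that 1 kb it was 1.52% for EnPGC-1 and 0% for DMSO, and over all genes 20% and 5.9%. From 2 to 5 kb after the start it was 12.5% for EnPGC-1 and 2.86% for DMSO, near the 13.4% and 3.49% of all genes.

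**Figure D4:**
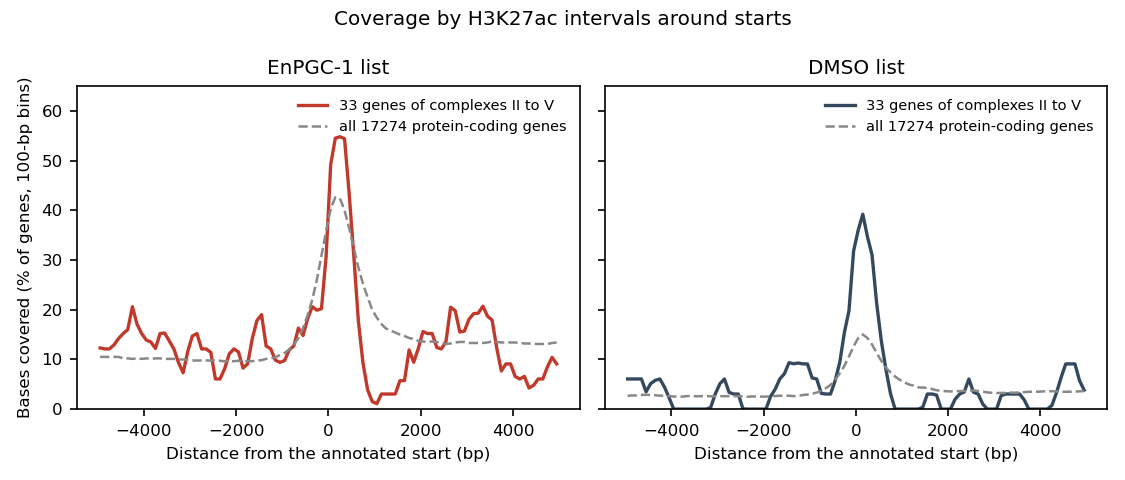
Share of bases covered by EnPGC-1 intervals (left) and DMSO intervals (right) in bins of 100 bp around the start, for 33 genes of complexes II to V (solid) and all 17274 genes with a listed start (dashed). In the bin that begins at the start, the EnPGC-1 panel has the solid line at 49.2% and the dashed line at 40.3%, and the DMSO panel has the solid line at 36% and the dashed line at 14.3%.

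The scores show where the marking at starts lies within each list. The EnPGC-1 intervals within 1 kb of these starts had a median score of 3.43, at the median percentile 47.1 of their list, and the DMSO intervals had 2.4, at percentile 55.2. When as many EnPGC-1 intervals were kept as the DMSO list holds, taking the highest-scoring first, 15 of the 41 genes were marked within 1 kb of a gene end with EnPGC-1 and 19 with DMSO. The share of all genes marked in the EnPGC-1 list was then 40.5%, against 36.6% of the 41 genes. At that setting 7 genes (17.1%) were marked with EnPGC-1 alone and 11 (26.8%) with DMSO alone, where all genes had 15.5% for EnPGC-1 alone and 16.5% for DMSO alone. Within 1 kb of the start, 8 of 33 genes had an EnPGC-1 interval, against 28.3% of all genes. The EnPGC-1 list alone then marked 4, or 12.1%, and the DMSO list alone marked 11, or 33.3%, against 14.7% and 18.1% of all genes. The start base was covered at 4 of 33 genes in the EnPGC-1 list (12.1%) and at 11 in the DMSO list, and the share of all genes in the EnPGC-1 list was 16.8%. This setting removes EnPGC-1 intervals and no DMSO interval. Its threshold fell among 17339 EnPGC-1 intervals tied at a score of 4.213, of which the widest 2815 were kept. With all tied intervals kept, 16 of the 41 genes were marked with EnPGC-1 within 1 kb of a gene end and 5 start bases were covered, Cox6b1 being the added gene at the start, where all genes had 43.4% and 18.1%.

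Single genes differ in how they come through that setting. The EnPGC-1 list then covered more bases within 5 kb at 20 of the 41 genes and the DMSO list at 18, against 48.6% and 25.8% of all genes. Cox4i1 had 5996 bases with EnPGC-1 and 1877 with DMSO, Sdhb 3688 with EnPGC-1 and 1202 with DMSO, and Atp5d 4686 with EnPGC-1 and 2620 with DMSO. Cyc1, which DMSO left unmarked, had 2525 with EnPGC-1. Uqcr11, Cox8a and Atp5e had no base left in the EnPGC-1 list, against 994, 828 and 667 in the DMSO list. The median difference over the 41 genes was 0, and over all genes it was also 0. With EnPGC-1 intervals kept only until their covered bases equalled those of the DMSO list, Cyc1 had 0 bases with EnPGC-1.

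**Figure D5:**
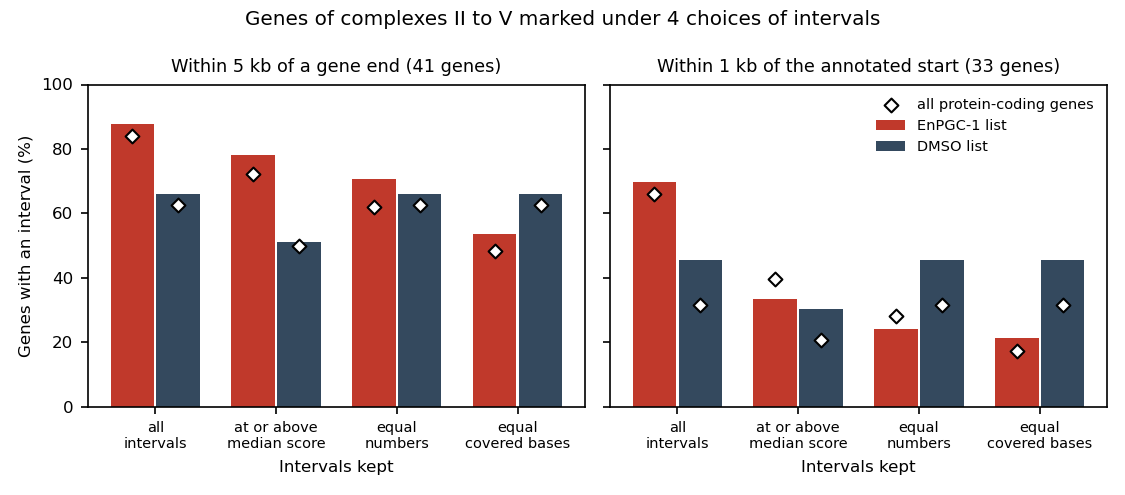
Share of genes with an interval in the EnPGC-1 list (red, left of each pair) and the DMSO list (dark blue) under 4 choices of which intervals are kept, with diamonds for all protein-coding genes. Within 1 kb of the start (right), the EnPGC-1 bar is 69.7% with all intervals and 24.2% with equal numbers, and the DMSO bar is 45.5% in both.

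Other genes of the same chain were counted in the same way. Within 1 kb of a gene end, 72.8% of all genes were marked with EnPGC-1 and 41.6% with DMSO. The shares marked in 1 list alone were 33.4% for EnPGC-1 and 2.19% for DMSO. Of 36 complex I subunit genes, 32 (88.9%) had an interval within 1 kb with EnPGC-1 and 19 (52.8%) with DMSO. The EnPGC-1 list alone marked 14 (38.9%) and the DMSO list alone marked 1 (2.78%). The widest difference was at Ndufs7, an iron-sulfur subunit, with 11246 bases within 5 kb with EnPGC-1 and 2357 with DMSO. The most negative was at Ndufv2, also an iron-sulfur subunit, with 0 bases with EnPGC-1 and 399 with DMSO. Of 33 genes for assembly factors of complexes II to V, 25 (75.8%) were marked with EnPGC-1 and 14 (42.4%) with DMSO, near the shares of all genes. With EnPGC-1 alone 13 (39.4%) were marked, and with DMSO alone 2 (6.06%). Cox19, a copper-handling factor for complex IV, had 9999 bases with EnPGC-1 and 1425 with DMSO, and Sdhaf3, an assembly factor of complex II, had 0 with EnPGC-1 and 769 with DMSO. The start base was covered at 46.9% of complex I genes with EnPGC-1 and 12.5% with DMSO, and at 48.3% of assembly factor genes with EnPGC-1 and 6.9% with DMSO. Over all genes it was covered at 38.2% with EnPGC-1 and 13.5% with DMSO.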

How the data were processed

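Sequenced were H3K27ac ChIP and input DNA of both treatments, and IgG ChIP of DMSO-treated cells. Per the submitters' processing notes, the work used MACS2 2.2.2.20160309, Bowtie 1.1.2, Trimmomatic 0.38, ChIPseeker 11.16.1 and Picard 0.118 on mm10, in an order not stated. Not given in the sources used here are the parameters, the control for calling, and any pooling of samples. The deposited files are 1 list of peaks per treatment, with a score taken to be −log10 of a q-value. This unit is inferred from the values, whose lowest is 1.31 in both deposited lists (−log10 of 0.05 is 1.3), and the score only ranked or filtered intervals within 1 list. Input and IgG samples were not analysed here.

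Entries that repeat an interval were combined, which turned 329623 EnPGC-1 entries into 253423 intervals and 84538 DMSO entries into 81522, on chromosomes 1 to 19 and X. Genes, promoters and symbols came from RefSeq on GRCm38.p6, the assembly of mm10. Atp5f1 was matched through its newer symbol Atp5pb and the rest of the 41 genes under their listed names. Of the other lists, 103 of 104 genes were matched. Windows of 1 kb and 5 kb were laid around both ends of a gene and joined where they met. An interval counted with 1 bp of overlap, and covered bases were counted inside the windows. The promoter table gave strand and start for 33 of the 41 genes and for 17274 genes, and the first listed start was used. Coordinates are 1-based. Scripts ran in Python 3.11.15 with numpy 2.4.6 and matplotlib 3.10.9. Tested on simulated data, covered bases and overlaps were wrong in 0 of 200 lists.

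The 41 genes and the other lists were chosen with earlier results of these data known. Genes were named with positions if 1 list alone marked them, if they had the 3 largest or 3 most negative differences, 0 bases in both lists, or the highest score in a list. Of the other lists, the genes with the largest and the most negative difference were named, and Cd8b1, Ms4a1 and Cd79a were named after their values were seen. Among tied scores the widest intervals were kept first. There were 14 alternatives. Those for start bases, for single genes and for tied scores were added after the data were seen. With 1 list per treatment, no replicate could be left out.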

Additional observations from a re-analysis of the deposited data

How the results depend on the processing

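The depth, the control and the calling threshold behind each list are unknown, so the number and width of intervals cannot be matched between treatments. No paired analysis was possible because each treatment has 1 list and no result comes from a test. Joining intervals within 1000 bp, the 500 bp window, interval midpoints, deposited entries and the gene end with more bases moved no summary value by more than 1.5 times. Shares of all genes are in brackets, and after a median or a median difference the brackets hold its value over all genes. With equal numbers of intervals, genes marked within 1 kb were 15 with EnPGC-1 (40.5%), 7 with EnPGC-1 alone (15.5%) and 11 with DMSO alone (16.5%), 9 were marked with DMSO alone within 5 kb (12.4%), and 20 with EnPGC-1 over the gene body (61.7%). The EnPGC-1 list then had 48 intervals and a median of 655 bases within 5 kb (596), a median difference of 0 (0), and 4 start bases covered (16.8%). With all tied scores kept, there were 16 with EnPGC-1 (43.4%), 8 with EnPGC-1 alone (17.1%), 11 with DMSO alone (15.3%) and 5 start bases (18.1%), and with all left out 15 (39.2%), 7 (15%), 11 (17.5%) and 4 (15.9%). With equal covered bases, genes marked within 1 kb were 11 with EnPGC-1 (26.9%), 4 with EnPGC-1 alone (9.82%) and 12 with DMSO alone (24.6%), and within 5 kb 22 with EnPGC-1 (48.4%), 8 with EnPGC-1 alone (8.15%) and 13 with DMSO alone (22.4%). Over the gene body there were 15 with EnPGC-1 (50.6%). The EnPGC-1 list had 30 intervals, a median of 302 bases (0), a difference of 0 (0) and 4 start bases (10.3%). At or above the median score of each list, 19 genes had an EnPGC-1 interval within 1 kb (52.5%), and 9 were marked with DMSO alone (6.98%). The EnPGC-1 list then had 69 intervals, and 5 start bases were covered in it (23.2%). Medians were 773 bases with EnPGC-1 (994) and 308 with DMSO (8), with a difference of 384 (651). Without intervals under 500 bp, the EnPGC-1 list had 90 intervals and a median of 1071 bases (1315). The DMSO list had 26 and 0 (0), with a difference of 732 (1035). The DMSO list then marked 12 genes within 1 kb (22.8%), and 2 within 5 kb alone (1.54%). In the 2500 bp window the EnPGC-1 list had 91 intervals, and medians were 911 with EnPGC-1 (1192) and 348 with DMSO (310), with a difference of 655 (823). In the 10 kb window, intervals were 244 with EnPGC-1 and 82 with DMSO, and the difference was 2058 (2301). Genes marked were 8 with EnPGC-1 alone (18.9%) and 2 with DMSO alone (0.777%). Around the annotated start only, intervals were 74 with EnPGC-1 and 32 with DMSO, and the DMSO median was 342 (0). There, 5 genes were marked with DMSO alone within 1 kb (3.22%). No difference changed sign among the 6 named with the largest or most negative values under the 3 choices on score, but at or above the median score those of Cox7c and Uqcr10 were 0. The cause of these shifts was not tested beyond the removal of intervals that each setting makes.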

Other observations

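Isoforms of complex IV and cytochrome c that are known mainly from heart and skeletal muscle, testis or lung were also marked. All 8 that were matched had an interval within 1 kb of a gene end with EnPGC-1, where 72.8% of all genes had one, and 3 (37.5%) had one with DMSO, where 41.6% of all genes had one. Cox4i2, the form of subunit 4 known from lung, had 5076 covered bases within 5 kb with EnPGC-1 and 1208 with DMSO, where the common form Cox4i1 had 8285 with EnPGC-1 and 1877 with DMSO. Of the muscle forms, Cox8b had 4899 bases with EnPGC-1 and 2061 with DMSO, Cox6a2 had 2450 with EnPGC-1 and 764 with DMSO, and Cox7a1 had 1170 with EnPGC-1 and 612 with DMSO. The testis gene of cytochrome c, Cyct, had 510 bases with EnPGC-1 and 0 with DMSO, and the somatic gene Cycs had 0 with EnPGC-1 and 308 with DMSO. Genes other than Cox4i2 and Cyct were named here after their values were seen.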
